A study of Schizosaccharomyces pombe with 12 samples.

Results

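The genes described here are 8 that switch fission yeast (*Schizosaccharomyces pombe*) from growth to mating and meiosis: *ste11*, *mei2*, *mei3*, *gpa1*, *ste6*, *ste4*, *spk1* and *fus1*. They were chosen by systematic gene ID (SPBC32C12.02, SPAC27D7.03c, SPBC119.04, SPBC24C6.06, SPCC1442.01, SPAC1565.04c, SPAC31G5.09c and SPAC20G4.02c), by a rule that uses no measured value but was written with earlier results of these data known, and are 8 of the 7004 genes counted. RNA was sequenced from 12 cultures, 3 of each of 4 strains. *thc1*Δ cells (*h-*, *thc1* open reading frame replaced by *his3*) were set against the *h-* wild type that they were made from, called the *thc1* wild type. *bmc1*Δ cells (*h+*, open reading frame replaced by natMX6) were set against a separate *h+* wild type, called the *bmc1* wild type. All 4 strains carry leu1-32, ura4-D18 and his3-D1. The *h-* strains are ade6-M216, and the *h+* strains are listed as ade6-M210/ade6-M216. The *bmc1* deletion was made in a diploid that was then sporulated. Strain genotypes and mating types come from the study's strain list, and the sample labels give only the deletion and its control. Every culture was 250 ml of rich YES medium at 32 °C in log phase, with no starvation or added pheromone described. Thc1 and Bmc1 are proteins that associate with fission yeast telomerase RNA.

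Fission yeast cells mate only when nutrients run out. The transcription factor Ste11 then turns on genes whose promoters carry the TR box, among them its own gene and *mei2*, and pheromone signalling through Gpa1, Ras1 and a mitogen-activated protein (MAP) kinase cascade that ends in Spk1 strengthens this programme. Entry into meiosis needs the RNA-binding protein Mei2, which the Pat1 kinase holds inactive in growing cells and which Mei3, made when both mating types are in 1 cell, frees by inhibiting Pat1. Nutrient-rich cells keep *ste11* low through cyclic AMP (cAMP) signalling and protein kinase A.

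Because Ste11 acts through the TR box, the promoters were read first. In the 300 bases before the annotated transcript start (RefSeq, build ASM294v3), the 9-letter TR box core TTCTTTGTT was found on either strand at 5 of the 8 genes. Of 5123 protein-coding genes with such a window, 103 (2.01%) held it. The stretches with the core are printed in the direction of the gene, with the core or its reverse complement in capitals. These stretches are shown because they carry the core of the element through which Ste11 acts. They lie at chrII:3983229-3983277 (plus strand, 147 to 99 bases before the start), chrI:4515135-4515205 (minus strand, 180 to 110 bases), chrIII:1765886-1765934 (plus strand, 200 to 152 bases), chrI:1296569-1296617 (minus strand, 74 to 26 bases) and chrI:3001540-3001725 (minus strand, 207 to 22 bases).
ste11: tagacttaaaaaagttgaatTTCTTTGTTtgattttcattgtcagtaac
mei2: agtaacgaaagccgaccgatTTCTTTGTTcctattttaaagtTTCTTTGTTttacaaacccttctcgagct
ste6: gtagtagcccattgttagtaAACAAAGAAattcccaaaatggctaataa
ste4: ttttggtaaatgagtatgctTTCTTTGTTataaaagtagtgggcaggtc
spk1: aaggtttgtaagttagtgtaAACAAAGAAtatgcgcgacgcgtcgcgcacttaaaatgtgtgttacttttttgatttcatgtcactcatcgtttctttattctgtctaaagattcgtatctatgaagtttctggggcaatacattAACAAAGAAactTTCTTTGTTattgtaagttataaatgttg
*mei2* held 2 copies in the same direction, starting 160 and 138 bases before the transcript start, and *spk1* held 3 copies. *ste6* carried a single copy on the opposite strand, and its annotated transcript begins at the start codon, so that the window there is counted from the coding sequence. The shorter core CTTTGTT, which the longer one contains, was in the windows of 6 genes, *gpa1* being the sixth, and in 10.7% of all protein-coding windows. *fus1* and *mei3* held neither in this window. *fus1* carried the 9-letter core 248 and 165 bases before its start codon, inside its annotated transcript. The annotated transcripts of the 8 genes lie at chrII:3983376-3987400 (*ste11*), chrI:4510983-4515025 (*mei2*), chrII:2329710-2331890 (*gpa1*), chrIII:1766086-1768971 (*ste6*), chrI:1295316-1296543 (*ste4*), chrI:4813111-4817786 (*fus1*), chrI:2999546-3001518 (*spk1*) and chrII:719719-720990 (*mei3*). The base after the core, which is C or T in the full TR box, was C or T at the *ste11*, *mei2*, *ste6* and *fus1* matches and at 1 of the 3 *spk1* matches, and was A at the *ste4* match and at the other 2 of *spk1*. A match is a description of the letters and does not show that Ste11 was bound there.

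**Figure D1:**
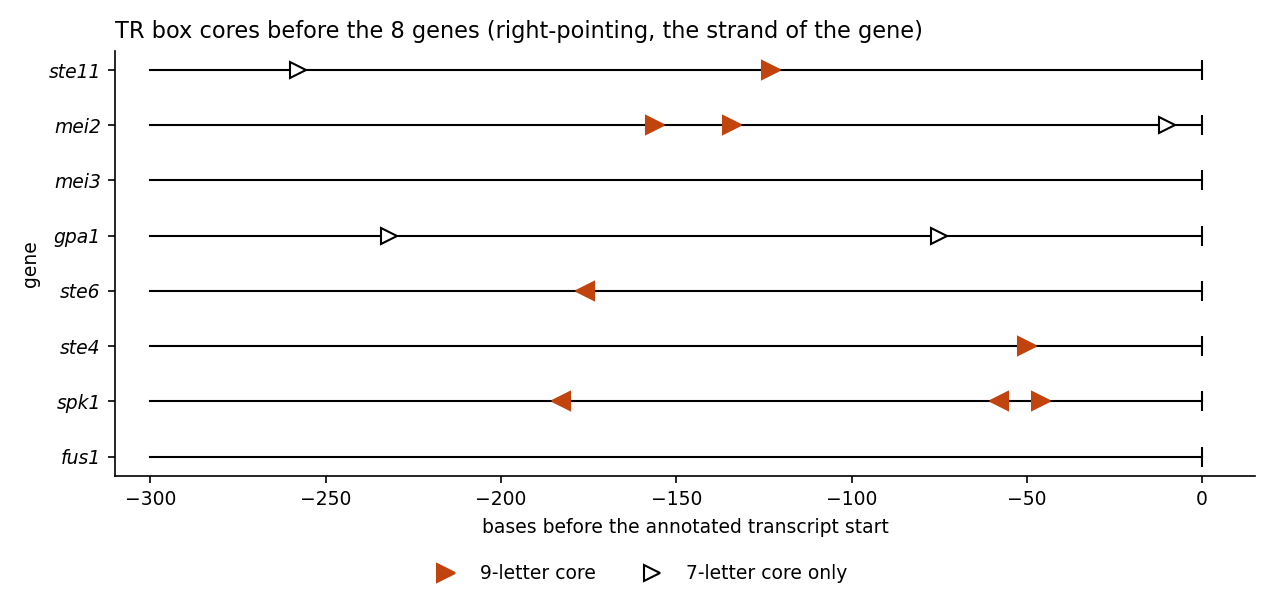
TR box cores in the 300 bases before the annotated transcript start of each of the 8 genes, with the start at 0. Filled arrowheads are the 9-letter core, found at 5 genes, open ones the 7-letter core alone, and arrowheads pointing right lie on the strand of the gene.

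The libraries held 33565122 to 40328959 counts on genes. Levels are given as counts-per-million values (CPM), scaled by the trimmed mean of M values (TMM), and differences as log2 fold changes with their standard error (SE) or 95% interval and the adjusted *p* of edgeR's quasi-likelihood test over all genes tested, with 3 libraries in each strain. The deleted genes were lower in the strains labelled for them, though not at 0. Only the open reading frames were replaced, and the paper reports that reads over them were absent in the deletion strains. Counts are given per gene, and where in each gene the remaining reads lie was not tested. *thc1* had 19.7 to 21.0 CPM in *thc1*Δ cells and 48.2 to 51.9 CPM in their wild type, and *bmc1* had 15.4 to 16.5 CPM in *bmc1*Δ cells and 25.2 to 26.1 CPM in theirs. Replicate 1 of *thc1*Δ and replicate 1 of both *bmc1* strains stood apart from the other 2 replicates of their strain. The summed levels of mating-type markers overlapped between most strains. The summed level of 7 markers of *h-* cells was 153 to 170 CPM in *thc1*Δ, 165 to 168 CPM in the *thc1* wild type, 137 to 177 CPM in *bmc1*Δ and 145 to 164 CPM in the *bmc1* wild type, and that of 4 markers of *h+* cells was 477 to 522 CPM in *thc1*Δ, 502 to 506 CPM in the *thc1* wild type, 466 to 526 CPM in *bmc1*Δ and 480 to 496 CPM in the *bmc1* wild type. Most of the *h+* sum was *sxa1*. Without *sxa1*, the *h+* markers summed to 45.0 to 46.9 CPM in *thc1*Δ, 40.1 to 43.7 CPM in the *thc1* wild type, 45.7 to 53.1 CPM in *bmc1*Δ and 50.0 to 57.1 CPM in the *bmc1* wild type. The *bmc1* wild type then lay above both *h-* strains, while *bmc1*Δ, also listed as *h+*, overlapped *thc1*Δ. The *h+* marker *map2* went the other way against the *thc1* wild type. Its log2 fold change was -0.22 in the *bmc1* wild type, which did not pass, and it passed as lower in *bmc1*Δ. The sums therefore do not establish the listed mating types. Without *mam1*, the *h-* markers summed to 70.9 to 81.6 CPM in *thc1*Δ, 78.1 to 82.4 CPM in the *thc1* wild type, 64.0 to 82.5 CPM in *bmc1*Δ and 67.5 to 81.7 CPM in the *bmc1* wild type, and these ranges overlapped. No marker was at 0 in all libraries of a strain. Of the 7 and 4 markers, 2 *h-* markers were lower and 1 *h+* marker higher in *thc1*Δ than in its wild type, and in the *bmc1* wild type compared with the *thc1* wild type 1 *h-* marker was higher, 1 lower and 2 *h+* markers higher. Over all genes 21.1% and 41.4% passed in these 2 comparisons. The M-factor gene *mfm2* had 13.9 to 17.2 CPM in *thc1*Δ and 20.6 to 22.8 CPM in the *thc1* wild type. It had 13.6, 1.93 and 1.85 CPM in *bmc1*Δ and 2.06, 8.63 and 1.54 CPM in the *bmc1* wild type. The part of the mating-type markers in the results below was not tested. In bulk RNA, fewer cells that express a gene and less RNA per cell cannot be told apart.

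All 8 genes had reads in every library of growing cells, at low to moderate levels. Whether the few reads of *mei3* came from its own strand was not tested. Per kilobase of annotated exon, which allows comparison between genes, *gpa1* stood at 17.1 ± 0.792 CPM per kb in *thc1*Δ, 20.3 ± 0.856 in the *thc1* wild type, 20.8 ± 3.31 in *bmc1*Δ and 20.1 ± 3.18 in the *bmc1* wild type (SD, n = 3 each). *ste11* came to 21.3 ± 3.63 CPM per kb in *thc1*Δ, 17.7 ± 0.619 in the *thc1* wild type, 28.0 ± 9.95 in *bmc1*Δ and 29.0 ± 7.01 in the *bmc1* wild type. *mei2* reached 3.95 ± 0.76 CPM per kb in *thc1*Δ, 8.39 ± 0.652 in the *thc1* wild type, 2.49 ± 0.46 in *bmc1*Δ and 2.25 ± 0.412 in the *bmc1* wild type. Its mean was above that of *ste6* in the *thc1* wild type alone, and above that of *mei3* in every strain. *mei3* was the rarest, with 0.561 to 0.909 CPM per kb on average in the 4 strains and 23 to 45 reads in a library. At 23 reads the exact Poisson 95% interval is 14.6 to 34.5, counting error alone, so that small changes of *mei3* were not detectable at this depth. Between the lowest and the highest library, *mei2* spanned 4.94-fold and *ste11* 2.32-fold, while the other 6 genes spanned 1.37-fold to 1.82-fold.

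**Figure D2:**
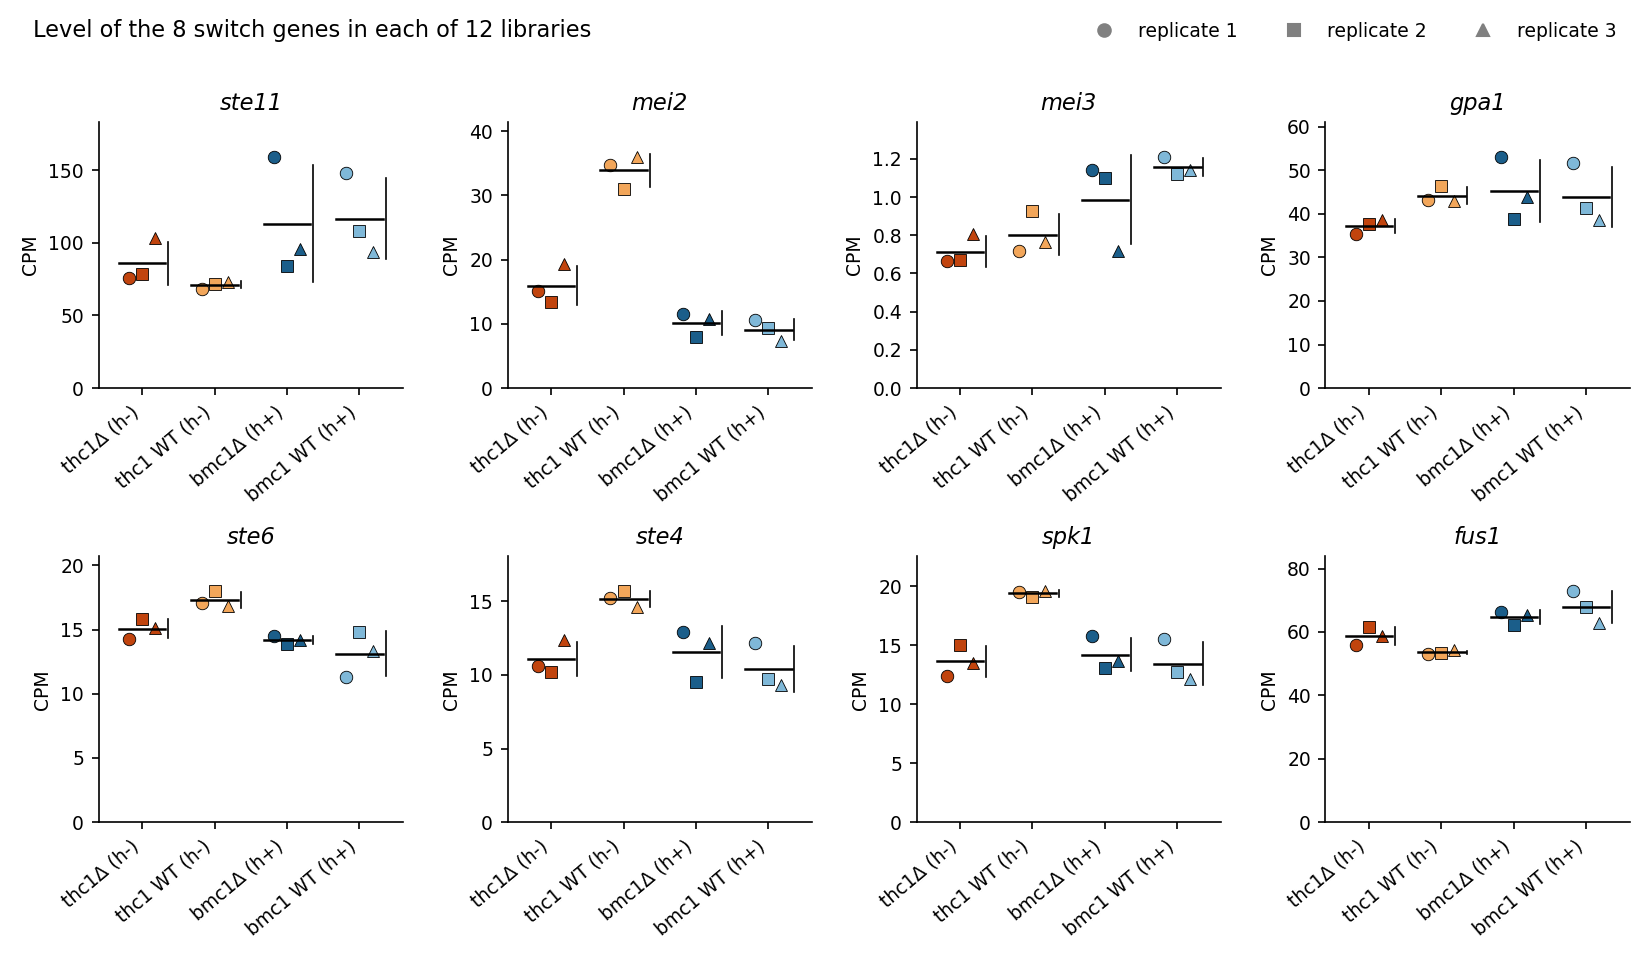
TMM-scaled CPM of each gene in all 12 libraries, by strain, with the replicate number given by the symbol, the mean as a horizontal line and 1 SD as a vertical line. *mei2* lies between 31 and 36 CPM in the *thc1* wild type and below 20 CPM in the other 9 libraries.

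Deletion of *thc1* went with lower RNA of 4 of the 8 genes, *mei2*, *spk1*, *ste4* and *gpa1*, against their own wild type. None of the 8 passed as higher, although all *thc1*Δ libraries were above all wild-type libraries for *ste11* and *fus1*. Over all genes tested, 21.1% passed an adjusted *p* of 0.05 in this comparison and 11.1% passed as lower. The median log2 fold change of the 8 genes was -0.23, and that of all 6235 genes was 0.00. Only *mei2* changed at least 2-fold as well, as 1.2% of all genes did. The 4 genes stand at different points of the pathway: the meiotic regulator itself, the last kinase of the pheromone cascade, an adaptor of its first kinase and the G protein at its head.

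*mei2* had 15.1, 13.4 and 19.4 CPM in *thc1*Δ and 34.7, 31 and 36 CPM in the *thc1* wild type. Every deletion library lay below every wild-type library, with a wide gap between them. The log2 fold change was -1.09 (SE 0.124, adjusted *p* = 0.000913, edgeR), which is 0.47 of the wild-type level, and it passed in all 15 alternative analyses with log2 fold changes from -1.25 to -0.98. An exact permutation test of 3 libraries against 3 cannot give a two-sided *p* below 0.1 and gave that value.

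*spk1*, the MAP kinase of the pheromone pathway, had 12.4, 15 and 13.5 CPM in *thc1*Δ and 19.5, 19.1 and 19.6 CPM in the wild type. The wild-type libraries lay close to each other and all deletion libraries were lower, with a log2 fold change of -0.51 (SE 0.0774, adjusted *p* = 0.00352, edgeR). *ste4*, whose product binds the first kinase of the cascade, Byr2, had 10.6, 10.2 and 12.4 CPM in *thc1*Δ and 15.2, 15.7 and 14.6 CPM in the wild type. Again the groups did not overlap, and the log2 fold change was -0.46 (SE 0.0841, adjusted *p* = 0.00821, edgeR). *gpa1*, the alpha subunit of the G protein that pheromone receptors activate, had 35.4, 37.6 and 38.7 CPM in *thc1*Δ and 43.3, 46.4 and 43.0 CPM in the wild type. Its change was the smallest of the 4, at -0.25 (SE 0.051, adjusted *p* = 0.0126, edgeR), and it did not pass without replicate 2 of the wild type (adjusted *p* = 0.0547) or in 1 fit over all 12 libraries (adjusted *p* = 0.159).

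The other 4 genes did not pass. *ste11* had 75.9, 78.8 and 103 CPM in *thc1*Δ and 68.4, 71.5 and 73.3 CPM in the wild type. All deletion libraries were above all wild-type libraries, the reverse of *mei2*, with a log2 fold change of 0.27 (95% interval 0.03 to 0.51, adjusted *p* = 0.105, edgeR). It passed in 2 of 15 alternatives, DESeq2 (adjusted *p* = 0.0424) and the analysis without replicate 1 of *thc1*Δ (log2 fold change 0.35, adjusted *p* = 0.00487). Without that library 7 of the 8 genes passed, *ste11* and *fus1* as higher, *mei2*, *spk1*, *ste4*, *gpa1* and *ste6* as lower. Over all genes 2562 of 6260 passed there, against 1313 of 6235 with every library. *fus1*, the formin that builds the actin structure at the site of cell fusion, had 56.0, 61.5 and 58.7 CPM in *thc1*Δ and 53.1, 53.3 and 54.2 CPM in the wild type (log2 fold change 0.13, 95% interval 0.03 to 0.23, adjusted *p* = 0.0717). *ste6*, the exchange factor that activates Ras1 in mating cells, had 14.3, 15.8 and 15.1 CPM in *thc1*Δ and 17.1, 18 and 16.8 CPM in the wild type (log2 fold change -0.20, 95% interval -0.35 to -0.06, adjusted *p* = 0.0563). *mei3* had 23, 24 and 30 reads in *thc1*Δ and 27, 34 and 29 reads in the wild type, with groups that overlapped and a 95% interval of -0.61 to 0.27 for its log2 fold change.

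Deletion of *bmc1* changed none of the 8 genes at an adjusted *p* of 0.05. Over all genes 0.0481% passed (3 of 6232), so that the count of 0 among the 8 is near the background. With the replicate number as a block, 200 of all genes passed. No gene of the 8 reached an unadjusted *p* of 0.05 in edgeR, and none passed in DESeq2 or in any of the other alternatives, the replicate block among them. The deletion and wild-type libraries overlapped for every gene. The median log2 fold change of the 8 genes was 0.06.

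*mei2* had 11.5, 7.97 and 10.8 CPM in *bmc1*Δ and 10.6, 9.35 and 7.3 CPM in the *bmc1* wild type, with a 95% interval of -0.27 to 0.56 for the log2 fold change. *spk1* had 15.8, 13.1 and 13.7 CPM in *bmc1*Δ and 15.5, 12.7 and 12.1 CPM in the wild type (95% interval -0.20 to 0.35). *ste4* had 12.9, 9.54 and 12.2 CPM in *bmc1*Δ and 12.2, 9.74 and 9.33 CPM in the wild type (95% interval -0.19 to 0.49). All 3 intervals include 0, and their upper bounds allow a rise of up to 0.56 on the log2 scale.

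*ste11* showed a spread of another kind. It had 159, 84 and 95.9 CPM in *bmc1*Δ replicates 1 to 3 and 148, 108 and 93.8 CPM in *bmc1* wild-type replicates 1 to 3. Replicate 1 was above the others in both strains, and the interval of the fold change was wide, -0.66 to 0.56. *gpa1* followed it, with 53.1, 38.9 and 43.8 CPM in *bmc1*Δ and 51.7, 41.4 and 38.5 CPM in the wild type (95% interval -0.29 to 0.37). Replicate 1 was the highest library of both *bmc1* strains for *fus1*, *spk1*, *ste4*, *mei2* and *mei3* as well, while *ste6* was lowest in replicate 1 of the wild type, at 11.3 CPM. Without replicate 1 of both strains, still none of the 8 genes passed, and *ste11* had a log2 fold change of -0.16 (adjusted *p* = 0.363). *fus1* had 66.2, 62.1 and 65.5 CPM in *bmc1*Δ and 72.9, 67.8 and 62.9 CPM in the wild type (95% interval -0.22 to 0.07). *ste6* and *mei3* had intervals of -0.12 to 0.34 and -0.72 to 0.25.

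**Figure D3:**
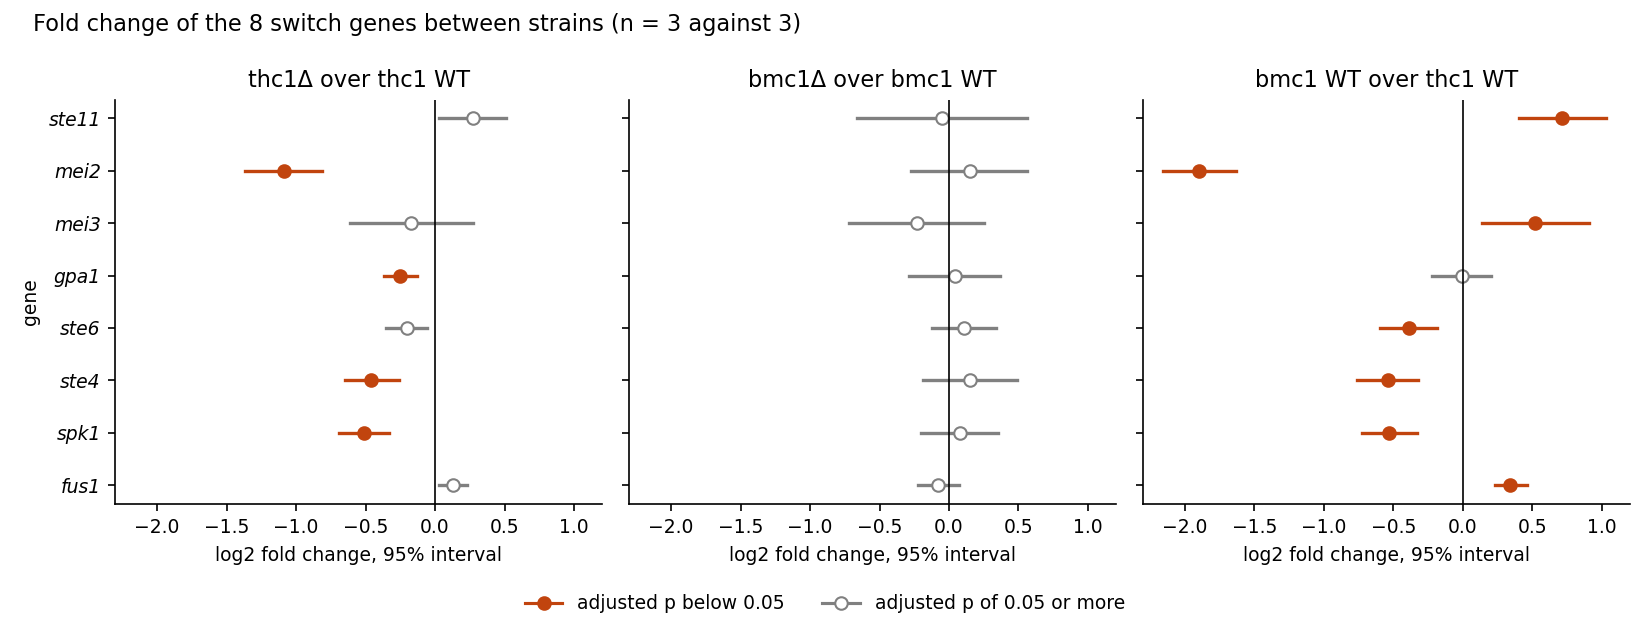
Log2 fold change of the 8 genes with its 95% interval in *thc1*Δ over the *thc1* wild type, *bmc1*Δ over the *bmc1* wild type, and the *bmc1* wild type over the *thc1* wild type, 3 libraries against 3. Filled points passed an adjusted *p* of 0.05, which 4, 0 and 7 genes did.

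The effect of *thc1* deletion minus that of *bmc1* deletion, each against its own wild type, was tested over all 12 libraries. Each deletion was carried in a different strain background. A difference due to the deletions and one due to the backgrounds therefore cannot be told apart. 2 of the 8 genes passed, *mei2* and *spk1*, where 10.4% of 6279 genes did. For *mei2* the difference of the log2 fold changes was -1.24 (SE 0.236, adjusted *p* = 0.00727, edgeR), and it passed in all 21 alternatives. For *spk1* it was -0.59 (SE 0.147, adjusted *p* = 0.0264, edgeR), and it passed in 15 of 21 alternatives, with adjusted *p* values of 0.053 to 0.0719 without *thc1*Δ replicate 3, without any 1 of the *thc1* wild-type libraries, or without *bmc1* wild-type replicate 2 or 3. *ste4* missed the threshold with a difference of almost the same size, -0.61 (SE 0.179, adjusted *p* = 0.051). With the replicate number as a block, *ste4* (adjusted *p* = 0.0231) and *gpa1* (-0.29, adjusted *p* = 0.0357) passed as well, 4 genes in all. For the other genes the differences ran from -0.32 for *ste6* to 0.32 for *ste11*.

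The 2 wild types, neither of which carries a deletion, differed in most of these genes. In the *bmc1* wild type, 7 of the 8 genes differed from the *thc1* wild type, where 41.4% of all genes did. 4 were lower (*mei2*, *spk1*, *ste4* and *ste6*; 19.3% of all genes) and 3 were higher (*ste11*, *fus1* and *mei3*; 22.2% of all genes). *gpa1* alone did not pass, with a log2 fold change of -0.01 (95% interval -0.22 to 0.20). *mei2* was the single gene of the 8 past a 2-fold change, as 2.81% of all genes were. The 2 strains differ in mating type, in the *ade6* allele and in strain history, which cannot be told apart.

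*mei2* had 10.6, 9.35 and 7.3 CPM in the *bmc1* wild type and 34.7, 31 and 36 CPM in the *thc1* wild type, a log2 fold change of -1.90 (SE 0.117, adjusted *p* = 1e-05, edgeR) or 0.268 of the level. *ste11*, its activator, had 148, 108 and 93.8 CPM in the *bmc1* wild type and 68.4, 71.5 and 73.3 CPM in the *thc1* wild type, a log2 fold change of 0.71 (SE 0.138, adjusted *p* = 0.00406, edgeR). RNA of the regulator was thus higher and RNA of its target lower in the same strain, with no overlap of libraries for either. Ste11 protein and its activity were not measured. *spk1* was lower, at -0.53 (SE 0.0878, adjusted *p* = 0.00189), and so was *ste4*, at -0.54 (SE 0.0974, adjusted *p* = 0.00289). *ste6* fell by 0.39 on the log2 scale (adjusted *p* = 0.0097), with 11.3, 14.8 and 13.3 CPM in the *bmc1* wild type and 17.1, 18 and 16.8 CPM in the *thc1* wild type. *fus1* was higher by 0.34 (adjusted *p* = 0.000975). *mei3* was higher by 0.52 (adjusted *p* = 0.0371) on 43, 45 and 42 reads in the *bmc1* wild type and 27, 34 and 29 reads in the *thc1* wild type, and passed in 6 of 14 alternatives, not in DESeq2 (adjusted *p* = 0.153), while the other 6 passed in all 15. The comparison shares its *thc1* wild-type libraries with that of *thc1*Δ, so the 2 results are not independent.

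Set against the *thc1* wild type, *bmc1*Δ differed in 6 of the 8 genes (38.1% of all genes passed), 4 of them lower (17.8% of all genes). *mei2* was at -1.75 (95% interval -2.04 to -1.45), *spk1* at -0.45, *ste4* at -0.39, *ste6* at -0.29, *fus1* at 0.27 and *ste11* at 0.67, while *gpa1* (0.03) and *mei3* (0.29) did not pass. *ste11* passed in 10 of 15 alternatives there, and *ste4* in 12. Leaving out single libraries of the *thc1* wild type took the adjusted *p* of *ste11* and *ste4* as high as 0.125 and 0.097.

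The mean level of *mei2* in *thc1*Δ lay between those of the wild types. Against the *bmc1* wild type, 2 of the 8 genes passed in *thc1*Δ (13.5% of all genes), *mei2* as higher (0.81, SE 0.17, adjusted *p* = 0.0219) and *mei3* as lower (-0.70, 95% interval -1.10 to -0.30, adjusted *p* = 0.0376). *mei2* passed in 11 of 15 alternatives, not with the replicate block (adjusted *p* = 0.081) nor without *thc1*Δ replicate 3 (0.0691) or *bmc1* wild-type replicate 2 (0.0624) or 3 (0.0513). *mei3* passed in 6 of 14 and in none that left out a library. For *spk1* and *ste4*, *thc1*Δ minus the *bmc1* wild type had 95% intervals of -0.25 to 0.29 and -0.21 to 0.37. Against *bmc1*Δ, none of the 8 genes passed in *thc1*Δ in edgeR (10.6% of all genes), although 3 had an unadjusted *p* under 0.05 and *mei2* passed in DESeq2 (log2 fold change 0.66, adjusted *p* = 0.00265). In the order of mean levels, *mei2* was highest in the *thc1* wild type, then *thc1*Δ, *bmc1*Δ and the *bmc1* wild type, and only the first step passed. *spk1* and *ste4* had the *thc1* wild type above all others, then *bmc1*Δ, *thc1*Δ and the *bmc1* wild type, again with the first step alone past the threshold. For *ste11*, *gpa1*, *ste6*, *fus1* and *mei3* no 2 neighbours in the order passed.

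**Figure D4:**
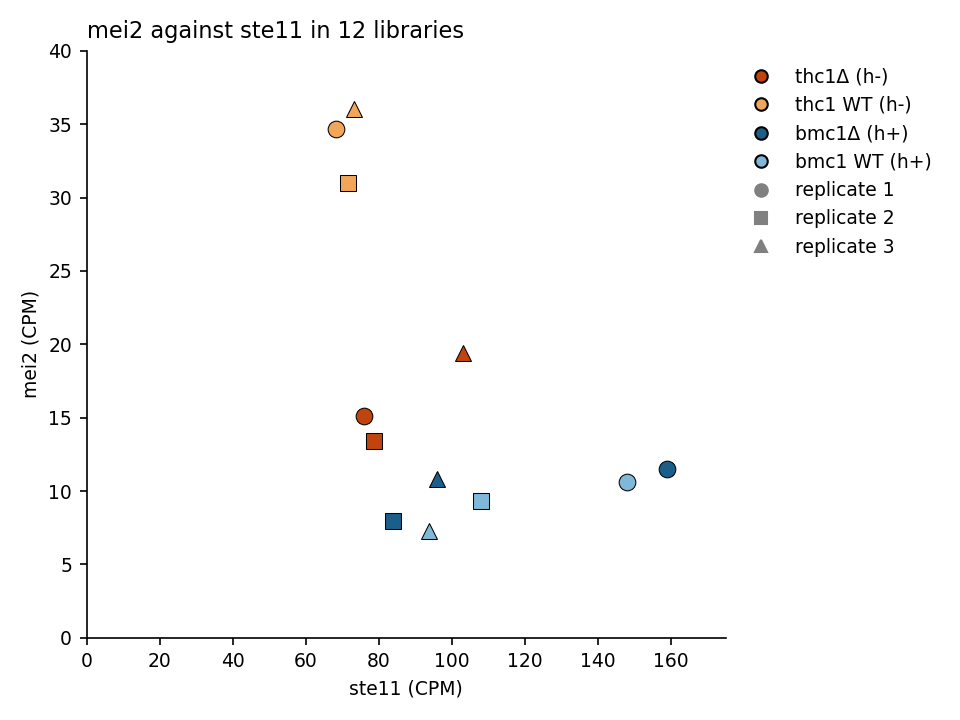
*mei2* against *ste11* in CPM, 1 point a library, coloured by strain, with the replicate number given by the symbol. The *thc1* wild type has the highest *mei2* and the lowest *ste11*, and the libraries with *ste11* at 159 and 148 CPM have *mei2* of 11.5 and 10.6 CPM.

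As a description with no test over the 12 libraries, which cluster by strain, Pearson's *r* of log2 CPM was 0.89 between *ste4* and *spk1*, 0.86 between *mei2* and *ste4*, 0.84 between *mei2* and *spk1* and 0.78 between *mei2* and *ste6*. *ste11* went with *fus1* (0.84), *mei3* (0.67) and *gpa1* (0.61) and against *ste6* (-0.69) and *mei2* (-0.55). Of the 4 genes other than *ste11* that carry the 9-letter TR box core, none had a positive *r* with *ste11*, *ste4* being at -0.17 and *spk1* at -0.28. These values mix differences between strains with those inside a strain. Inside each strain, the library with the highest *ste11* also had the highest *mei2*. The same held for *ste4* except in the *thc1* wild type, for *spk1* except in *thc1*Δ, and for *ste6* in *bmc1*Δ alone. Outside the 8, the 5 genes of 5816 most like *ste11* were *ptb1* (0.962), the non-coding RNA *rse1* (0.960), the alpha-glucan synthase gene *mok13* (0.957), the forkhead transcription factor gene *sep1* (0.954) and *aly1* (0.954). *rse1* (SPNCRNA.111, annotated as a cis-acting repressor of *ste11*) lies on the minus strand at chrII:3978331-3982106 and starts 1269 bases from *ste11*, which is read the other way. It had 73.1, 53.8 and 51.4 CPM in *bmc1*Δ and 71.6, 58.1 and 53.8 CPM in the *bmc1* wild type. In the *h-* strains it had 44.3, 44.8 and 49.3 CPM in *thc1*Δ and 40.1, 44.4 and 45.1 CPM in the *thc1* wild type. Replicate 1 was its highest library in both *bmc1* strains, as for *ste11*, and it was higher in the *bmc1* wild type than in the *thc1* wild type by 0.50 (adjusted *p* = 0.00373). Most like *mei2* were *npt1* (0.969), the anaphase-promoting complex gene *apc14* (0.959), *azr1* (0.957), the transporter gene *pho84* (0.956) and *rcf2* (0.954), all highest in the *thc1* wild type.

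Some of the 8 genes share sequence with other genes of the count table. The libraries were stranded, but no source used here states how counting treated strand. Overlapping genes had unequal counts, with 429 to 743 reads in a library for *spk1* and 2373 to 3310 for *hem4*. *fus1* had 1938 to 2729 reads and SPNCRNA.1026 had 378 to 746. *ste6*, all of it inside an antisense gene, had 402 to 661. Whether reads of the 2 strands were kept apart was not tested. *ste6* lies within the antisense non-coding RNA SPNCRNA.1227 over its whole length of 2886 bases. That RNA was higher in the *bmc1* wild type than in the *thc1* wild type (0.41, adjusted *p* = 0.00102), where *ste6* was lower, and had a log2 fold change of -0.05 (adjusted *p* = 0.768) in *thc1*Δ. *spk1* overlaps *hem4* on the other strand over 1525 bases, and *hem4* was lower as well, with a log2 fold change of -0.11 in *thc1*Δ (adjusted *p* = 0.0406) and of -0.24 (adjusted *p* = 0.00153) in the *bmc1* wild type. *fus1* overlaps SPNCRNA.1026 over 3205 bases, which was higher in the *bmc1* wild type (0.50, adjusted *p* = 0.0038), as *fus1* was. *gpa1* overlaps SPNCRNA.1503 over 1032 bases, whose log2 fold change in *thc1*Δ was -0.06 (adjusted *p* = 0.549). *mei2*, *ste11* and *mei3* overlap no other gene of the count table. Annotated antisense non-coding RNAs that the count table lacks do lie over them, by up to 895, 946 and 570 bases.

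Of 42 listed genes outside the 8, all tested, 8 were higher and 4 lower in *thc1*Δ, none in *bmc1*Δ in either direction, and 24 were higher and 3 lower in the *bmc1* wild type compared with the *thc1* wild type. Over all genes 21.1% passed in *thc1*Δ, so that 12 of 42 is near the background there, and 41.4% passed between the wild types (22.2% as higher). The median log2 fold changes of the 42 were 0.06, -0.05 and 0.17. Next to *spk1* and *ste4*, *byr1*, the kinase that activates Spk1, was lower in *thc1*Δ, with 55.1, 62.5 and 67.0 CPM in *thc1*Δ and 85.3, 85.0 and 81.4 CPM in the wild type (log2 fold change -0.45, SE 0.0674, adjusted *p* = 0.00332). *ras1* was at -0.22 (adjusted *p* = 0.00579). The other 6 genes of the kinase and Ras1 list, *byr2* among them, did not pass. *byr1* was lower in the *bmc1* wild type also (-0.57, adjusted *p* = 0.000725). Of 8 genes that control or assist Mei2, *pat1* was higher in *thc1*Δ by 0.18 (adjusted *p* = 0.0305) and *rad25* was at -0.14 (adjusted *p* = 0.0359), a count of 2 of 8 that is near the 21.1% of all genes. *pat1*, the kinase gene that keeps Mei2 in check, was higher by 0.84 in the *bmc1* wild type (adjusted *p* = 0.000881), with 78.1, 67.6 and 52.3 CPM there and 35.9, 36.5 and 38.0 CPM in the *thc1* wild type.

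Several genes of the cAMP branch changed in *thc1*Δ, and all of them differed between the wild types. In *thc1*Δ, 4 of its 9 genes were higher and 1 lower, where 21.1% of all genes passed in either direction, with a median log2 fold change of 0.18. *gpa2*, its G protein alpha subunit, was at 0.33 (adjusted *p* = 0.00118), *pka1*, the catalytic subunit of protein kinase A, at 0.41 (adjusted *p* = 0.00521), *cyr1*, adenylyl cyclase, at 0.13 (adjusted *p* = 0.0322) and *cgs2*, a phosphodiesterase, at 0.16 (adjusted *p* = 0.0188), while the glucose receptor gene *git3* was at -0.16 (adjusted *p* = 0.027). In the *bmc1* wild type compared with the *thc1* wild type all 9 were higher, where 22.2% of all genes were, from 0.16 for *rst2* to 0.69 for *git5*, with a median of 0.45. The list holds genes of both directions: Gpa2, Git5 and Pka1 act to hold *ste11* down, while Cgs1 and Cgs2 oppose protein kinase A and Rst2 activates *ste11*. Of the 6 genes of the stress MAP kinase branch, *wis1* (0.20, adjusted *p* = 0.0239) and *sty1* (0.15, adjusted *p* = 0.0402) were higher in *thc1*Δ, a count of 2 of 6 where 21.1% of all genes passed. Of 11 other regulators of *ste11*, *ste7* alone passed in *thc1*Δ (0.39, adjusted *p* = 0.0194). It was higher by 1.31 in the *bmc1* wild type (adjusted *p* = 3.09e-05), and *rsv2* by 1.14 (adjusted *p* = 3e-06).

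**Figure D5:**
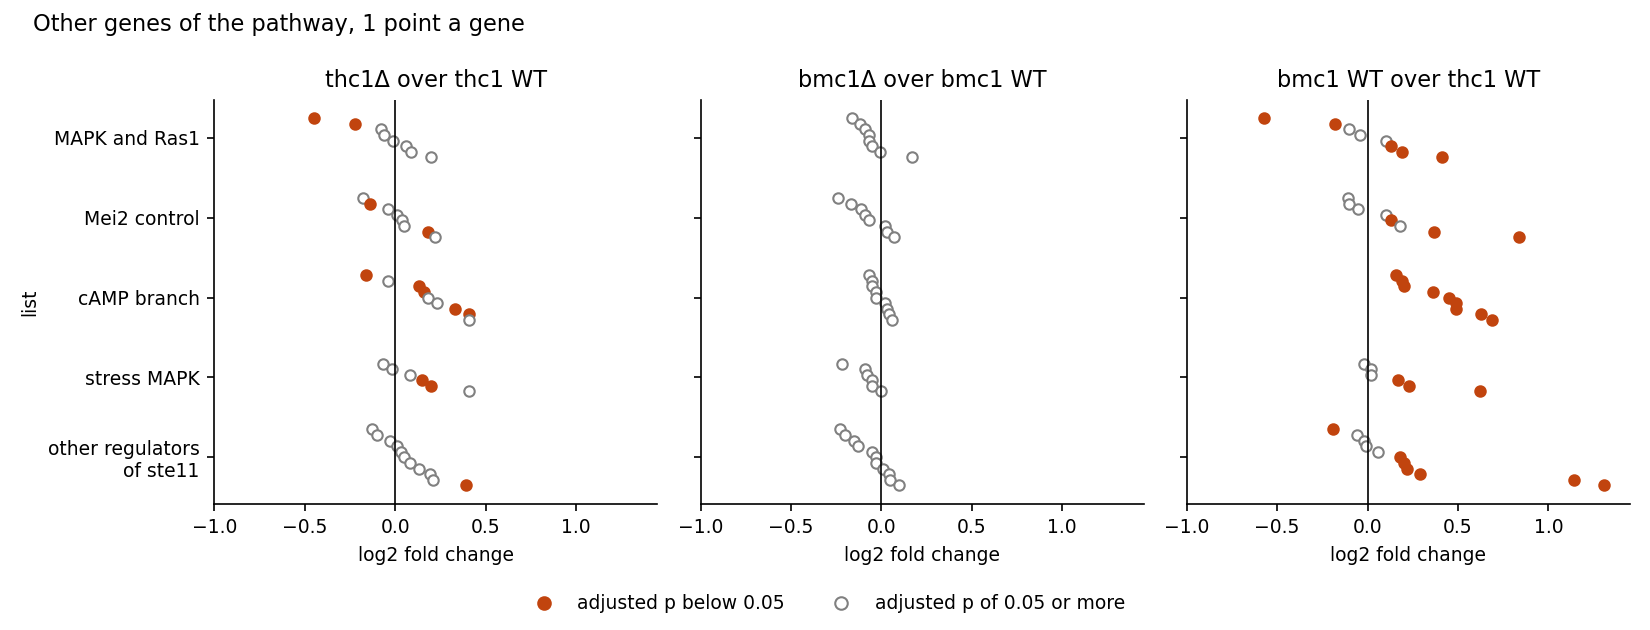
Log2 fold change of 42 other genes of the pathway, 1 point a gene, in *thc1*Δ over the *thc1* wild type, *bmc1*Δ over the *bmc1* wild type, and the *bmc1* wild type over the *thc1* wild type. Filled points passed an adjusted *p* of 0.05, as all 9 genes of the cAMP branch did between the wild types and no gene did in *bmc1*Δ.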

How the data were processed

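RNA from 12 log-phase cultures was analysed. The authors depleted ribosomal RNA, made stranded libraries, trimmed the single-end reads and, per the labels, aligned them to ASM294v2 with STAR 2.5.2b. The deposited values are raw counts, whole numbers for each of 7004 genes. Which tool and annotation did the counting, and how it treated strand, is not given in the sources used here, and 0 columns were left unmapped. Totals of 33565122 to 40328959 counts leave counting error small for all genes but *mei3*. Gene models and sequences are RefSeq's (ASM294v3). 6846 genes matched by locus tag, 15 by synonym and 143 not at all, and no coordinate was converted.

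Each pair of strains was tested with edgeR 4.0.16 (quasi-likelihood, TMM, filterByExpr at a minimum count of 10) in R 4.3.3 on its 6 libraries, and the difference of the 2 deletion effects on all 12, with *p* adjusted by Benjamini and Hochberg over all genes tested and called under 0.05. All 8 genes passed the filter in every comparison. Replicates are labelled cultures, and the labels do not say that they are independent isolates. The test was run on simulated data first. Likeness was Pearson's *r* of log2 CPM (prior count 2) over genes with a mean count of at least 50. Alternatives were DESeq2 1.42.0, limma-voom (limma 3.58.1), other scalings and filters, 1 fit over 12 libraries, the replicate block, no mitochondrial or ribosomal RNA genes, a 2-fold limit and each library left out. Leaving out both *bmc1* replicate 1 libraries, and a promoter window before the start codon, were chosen after seeing the data. Same-numbered *bmc1* libraries deviated together (*r* = 0.477, 0.283 and 0.229 over genes), replicate 1 the most. Replicates 2 and 3 set against each other across the 2 strains gave 0.166 and 0.199, nearly as much. Whether the numbers pair the samples beyond replicate 1 is therefore not shown. The block changed no call of the 8 genes in that comparison. Elsewhere same-numbered libraries share only a number.

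The 8 genes and all lists were chosen with earlier results of these data known. Named are the 8, listed pathway genes that passed against their own control or on which a result turns, mating-type markers, *thc1* and *bmc1*, the 5 genes most like *ste11* and *mei2*, and genes overlapping the 8. Of 12 regulators of *ste11* listed, *moc4* is *zfs1* and was counted once. Plots used matplotlib 3.10.9 (Python 3.11.15).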

Additional observations from a re-analysis of the deposited data

Results flagged for a closer look

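The effect of *thc1* deletion differed from that of *bmc1* deletion for 2 of the 8 genes, by a test of the difference over all 12 libraries (edgeR, adjusted over 6279 genes). The deletions were carried in different strain backgrounds, so deletion and background cannot be told apart in this test. For *mei2* the difference of log2 fold changes was -1.24 (adjusted *p* = 0.00727), with -1.09 in *thc1*Δ and 0.15 in *bmc1*Δ. For *spk1* it was -0.59 (adjusted *p* = 0.0264), with -0.51 in *thc1*Δ and 0.08 in *bmc1*Δ. Every *thc1*Δ library was below every *thc1* wild-type library for both genes. The *bmc1* wild type was itself lower than the *thc1* wild type for both, by log2 fold changes of -1.90 and -0.53.

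Among the 42 listed pathway genes the difference passed for 5, near the 10.4% of all genes that did: *byr1* at -0.63, *byr2* at 0.36, *gpa2* at 0.37, *wis1* at 0.41 and *nrd1* at 0.37. Of the 11 mating-type markers it passed for 1, the M-factor gene *mfm3* at -1.14, which had at most 1.5 CPM in any library.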

How the results depend on the processing

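Of 8 genes, the number that passed in *thc1*Δ against its wild type was 4. It was 1 with the 2-fold limit, 3 to 7 when a library was left out (7 without replicate 1 of *thc1*Δ) and 4 with the replicate block. In *bmc1*Δ it was 0 throughout. Between the wild types it was 7, 1 with the 2-fold limit, 6 with the replicate block and 6 to 7 with a library left out. In *thc1*Δ against the *bmc1* wild type it was 2, 0 with the 2-fold limit or the replicate block, 1 with a mean count of at least 50, which removes *mei3*, and 0 to 1 with a library left out. Against *bmc1*Δ it was 0, and 1 in DESeq2 or in 1 fit over 12 libraries, *mei2* both times. In *bmc1*Δ against the *thc1* wild type it was 6, 1 with the 2-fold limit, 6 with the replicate block and 4 to 6 with a library left out. For the difference of the deletion effects it was 2, 1 with the 2-fold limit, 4 with the replicate block, 3 without both *bmc1* replicate 1 libraries and 1 to 3 with a library left out. The causes of these shifts were not tested.

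Of 888 single-gene values under alternatives, 831 kept their side of the threshold, 36 lost and 21 gained a call, and no called value changed sign, though values without a call could. No scaling moved the median of all genes by 0.1 on the log2 scale. Counts of all genes passing in *thc1*Δ ran from 578 to 2562 with a library left out, against 1313, the highest being without replicate 1 of *thc1*Δ. In *bmc1*Δ 3 genes passed, 31 in DESeq2, 200 with the replicate block, 58 without both replicate 1 libraries, an analysis chosen after seeing the data, and 1 to 4 with a library left out. Over all genes, the counts were 2583 between the wild types (1582 to 2824 with a library left out), 2379 in *bmc1*Δ against the *thc1* wild type (1017 to 2888), 844 in *thc1*Δ against the *bmc1* wild type (294 to 900, 274 with the block, 1478 in 1 fit over 12 libraries), 661 in *thc1*Δ against *bmc1*Δ (91 to 459, 85 with the block, 1077 in DESeq2, 1540 in 1 fit over 12 libraries) and 655 for the difference of the deletion effects (328 to 917, 1085 with the block). With the 2-fold limit 75 genes passed in *thc1*Δ against its wild type and 0 in *bmc1*Δ against its own, 169 in *bmc1*Δ against the *thc1* wild type, 90 in *thc1*Δ against the *bmc1* wild type, 72 in *thc1*Δ against *bmc1*Δ and 62 for the difference. Same-numbered *thc1*Δ and *thc1* wild-type libraries did not deviate together (*r* of -0.0775 to 0.0046). The TR box core was at 5 genes, 6 with the shorter core and 3 when counted from the start codon. *mei3* is limited by depth.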
